A study of Homo sapiens with 12 samples.

Results

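CYTIP and PTPRO are the 2 genes whose signal fell furthest when β-catenin was depleted from Ls174T colorectal cancer cells, among named genes with both channels well above background, and their signals were followed here over all 12 arrays of the series. Every probe whose RefSeq transcript belongs to either gene was taken. They were selected on the log2 ratio of si-b-catenin to si-control cells on the 2 arrays that compare these directly. That gave 2 of 17240 named genes on the array, with 1 of its 41000 probes each, spotted once. The expression arrays were 2-colour, with 6 for Ls174T and 6 for HEK293T cells. Ls174T is a human colorectal cancer line in which Wnt signalling is constitutively active, and HEK293T is a human embryonic kidney line in which the pathway can be switched on by Wnt3A. All cells, controls included, were transfected with 15 nM siRNA for 72 h. In Ls174T, si-b-catenin was hybridized directly against si-control on 2 dye-swapped arrays, whereas si-control cells and cells depleted of MLLT10, of BRG1 (si-BRG1) or of p300 (si-P300) were each put on 1 array against human reference RNA. In HEK293T, si-control with control conditioned medium (CM), si-control with Wnt3A, and the 4 knockdowns of MLLT10, DOT1L, BRG1 and p300 with Wnt3A were each put on 1 array against the same kind of reference, with medium added for 9 h before RNA extraction. The siRNAs were pools delivered transiently. Each condition was 1 biological sample, so no difference between conditions could be tested. Errors given below are those that the scanner software assigned to each log ratio and describe the spot, not the spread between cultures.

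CYTIP, the cytohesin-interacting protein, is a scaffold with a PDZ domain and a coiled coil that binds cytohesin-1, an exchange factor for ARF GTPases. It is best known from lymphocytes and dendritic cells, where it takes part in the control of integrin-mediated adhesion. PTPRO, also called GLEPP1, is a receptor-type protein tyrosine phosphatase of the R3 subfamily, with fibronectin type III repeats outside the cell and a catalytic domain inside. It is best known from podocytes of the kidney glomerulus, and a short form without most of the extracellular part is found in blood cells. In canonical Wnt signalling, stabilized β-catenin enters the nucleus and binds TCF/LEF factors on DNA, and cofactors such as the chromatin remodeller BRG1, the acetyltransferase p300 and the MLLT10/AF10-DOT1L methyltransferase complex act with it on target genes.

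The CYTIP probe was designed to NM_004288 and the PTPRO probe to NM_030667. In RefSeq (GRCh38.p14), CYTIP lies on the minus strand of chromosome 2 from 157414619 to 157444089 and PTPRO on the plus strand of chromosome 12 from 15322508 to 15598331. PTPRO has a start at each of 2 promoters, the downstream of which gives the shorter transcripts. Which of the transcript forms its single probe reads was not worked out. Because both genes fell with β-catenin, the 250 bases before each start were read from RefSeq on the strand of the gene and searched on both strands for the TCF/LEF core letters CTTTGAT or CTTTGTT and for the variants CTTTGAA or CTTTGTA. Capitals mark a match.
CYTIP, chr2:157444090-157444339, minus strand, GRCh38.p14: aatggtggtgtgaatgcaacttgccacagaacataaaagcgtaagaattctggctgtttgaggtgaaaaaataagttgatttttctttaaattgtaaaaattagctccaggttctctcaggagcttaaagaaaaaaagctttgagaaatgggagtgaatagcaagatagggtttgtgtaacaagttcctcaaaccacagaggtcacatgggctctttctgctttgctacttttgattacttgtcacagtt
PTPRO upstream start, chr12:15322258-15322507, plus strand, GRCh38.p14: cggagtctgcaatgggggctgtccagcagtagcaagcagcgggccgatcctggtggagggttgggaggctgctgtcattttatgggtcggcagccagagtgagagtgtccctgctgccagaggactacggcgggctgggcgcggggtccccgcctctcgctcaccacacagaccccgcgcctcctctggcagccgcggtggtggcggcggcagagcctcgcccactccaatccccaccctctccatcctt
PTPRO downstream start, chr12:15546361-15546610, plus strand, GRCh38.p14: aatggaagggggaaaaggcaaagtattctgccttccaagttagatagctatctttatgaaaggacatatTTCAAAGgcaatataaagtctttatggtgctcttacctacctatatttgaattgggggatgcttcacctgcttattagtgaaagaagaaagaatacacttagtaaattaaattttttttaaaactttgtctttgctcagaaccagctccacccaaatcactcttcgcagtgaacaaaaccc
No match stood in the CYTIP window or in the upstream PTPRO window. The downstream PTPRO window held 1 match, CTTTGAA on the opposite strand, 175 to 181 bases before the start. Of 35116 promoter windows of the same length, 4199 (11.96%) held at least 1 of the 4 motifs and 3.80% held CTTTGAA, so a window with a match was not unusual. The windows give the sequence beside the start only, and nothing about binding was measured.

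The siRNA targets fell under their own siRNA, though not on every measured probe. CTNNB1, which encodes β-catenin, had log2 changes of -2.70 and -2.49 on 2 probes. MLLT10 changed by -1.42 in Ls174T and -1.76 in HEK293T. SMARCA4, which encodes BRG1, changed by -2.53 to -2.24 in Ls174T and by -4.00 to -3.95 in HEK293T over 3 probes. EP300 changed by -1.31 and -2.98 on the probe spotted 10 times and by -0.60 and -2.35 on the other. DOT1L changed by -1.41 and -1.97 on 2 probes, while the other one read 0.17. The 12 arrays came from 5 slides, and 18104 to 31011 features per array were well-measured, meaning that the median signal of either channel exceeded its local background more than 2 times. The lowest numbers were those of the pair that compared β-catenin-depleted with control cells.

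Depletion of β-catenin removed most of the CYTIP and PTPRO signal. On the first array CYTIP had a processed signal of 1372 in the si-control channel and 153 in the si-b-catenin channel. On the dye-swapped array these signals were 1226 and 107. The depleted cells therefore kept 11.1% and 8.73% of the control signal, whichever dye they carried. The log2 ratios were -3.17 and -3.52, with a mean of -3.34 ± 0.27 (program error, 2 arrays of 1 sample). For PTPRO the signal was 874 in control and 87.8 in depleted cells on the first array and 562 against 74.5 on the second. This left 10.0% and 13.2% of the control, and log2 ratios of -3.32 and -2.92 averaged to -3.12 ± 0.26. The 2 arrays of each gene differed by less than the program error of their difference. Both members passed the 2-fold threshold (2 of 2), against 1.36% of the 17706 well-measured features that fell past it, but this comparison is the one that selected them and the share says nothing further about them.

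The 95% intervals from the program error ran from -3.87 to -2.82 for CYTIP and from -3.62 to -2.61 for PTPRO, so their order is not separated. Among all well-measured features CYTIP ranked 1 and PTPRO 4. An unnamed feature at -3.21 and a probe of SP5, a zinc-finger transcription factor and Wnt target, at -3.15 ± 0.27 lay between them. Neither of these had both channels well above background on both arrays. Further SP5 probes read -2.55 and 0.019, and only the probe at 0.019 was well above background in depleted cells. When both channels had to be well above background by the program's flag, PTPRO ranked 2. The next named gene by that criterion was ASCL2, a transcription factor of intestinal stem cells, at -2.81 ± 0.23, which lay just outside the choice of 2 genes, followed by CTNNB1 itself and CEMIP at -2.57. In depleted cells the signals of both members were close to background, with a CYTIP signal 2.20 and 1.97 times the local background and a PTPRO signal 1.79 and 1.93 times. The size of the decrease therefore depended on how background was removed. With local background subtracted from the median signals the changes were -2.85 for CYTIP and -2.58 for PTPRO. With a normal-exponential background model (normexp, offset 50) and loess dye normalization they were -2.41 and -2.09, still past 2-fold.

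**Figure D1:**
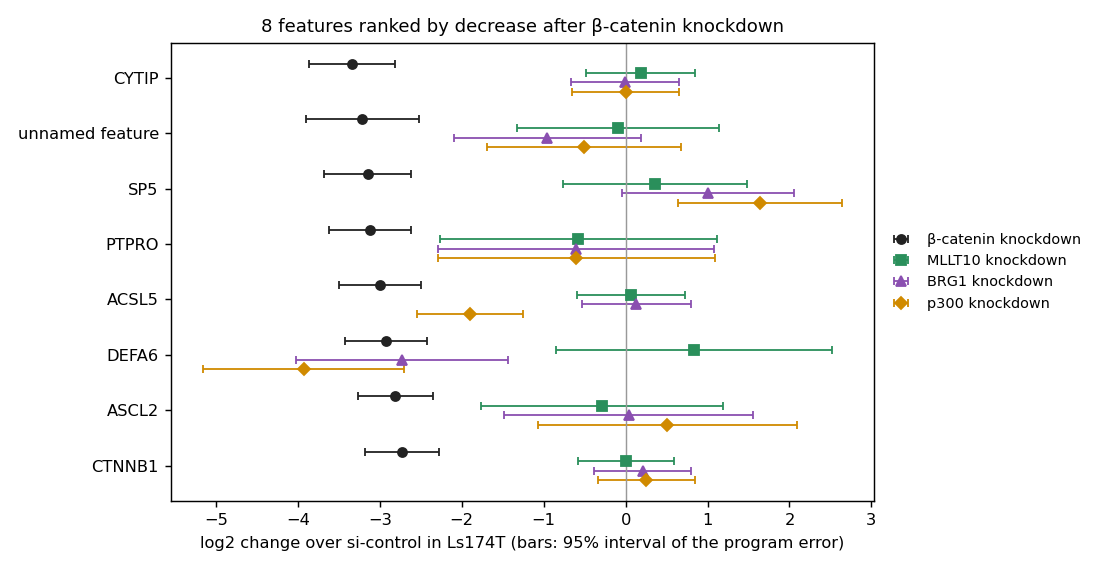
Log2 change over si-control in Ls174T for the 8 features that fell furthest after β-catenin knockdown, in order, with 95% intervals from the program error as bars; CTNNB1 is shown by 1 of its 10 spots. The β-catenin values of CYTIP (-3.34) and PTPRO (-3.12) stand among overlapping neighbours, while DEFA6 also reads far below 0 after BRG1 and p300 knockdown and CYTIP stays at 0.

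After removal of each of the 3 cofactors CYTIP read within the array error of its si-control level. Its log2 ratio to reference RNA was 1.30 in si-control, 1.48 in si-MLLT10, 1.29 in si-BRG1 and 1.30 in si-P300 Ls174T cells. All 4 sample channels were bright, at 23.3 to 36.7 times local background, and the reference channel was at 9.79 to 15.6 times. The changes over si-control were 0.18 ± 0.34 for MLLT10, -0.0081 ± 0.33 for BRG1 and -0.00055 ± 0.33 for p300 depletion. The 95% intervals from the program error spanned -0.49 to 0.85, -0.66 to 0.65 and -0.66 to 0.65, so a 2-fold decrease lay outside each of them as far as the spot error goes. The change after MLLT10 depletion was higher than that of 88.0% of the features.

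PTPRO read lower than si-control in each of the same 3 depletions, with an error too wide to place the change. Its log2 ratio to reference was 6.28 in si-control, 5.70 in si-MLLT10, 5.67 in si-BRG1 and 5.68 in si-P300 cells. The si-control value was the highest, and the 3 depletions lay together below it. The changes were -0.58 ± 0.86, -0.60 ± 0.86 and -0.60 ± 0.86. The wide error went with a dim reference channel, whose processed signal was 39.7, 39.4, 58.8 and 45.3 on these arrays, at 1.59 to 1.88 times local background. The sample channel itself was bright, with processed signals of 3083, 2049, 3006 and 2319. Taken alone and scaled to the 75th percentile of the array, the sample channel gave changes of -0.54 for MLLT10, 0.018 for BRG1 and -0.36 for p300. The 3 changes share the si-control array and so are not independent. Under normexp and loess the changes for BRG1 and p300 became -2.61 and -1.64, past 2-fold, and with the background of marked outlier spots replaced they were -0.36 and -0.32.

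By the program's ratios, neither member passed 2-fold in any of these 3 comparisons. Of the well-measured features, 1.74% did so in either direction for MLLT10, 5.26% for BRG1 and 5.9% for p300 depletion. Only the MLLT10 array shared a slide with si-control. The BRG1 and p300 arrays lay together on another slide, and between those 2 arrays CYTIP differed by -0.0075 ± 0.33 and PTPRO by -0.0040 ± 0.82.

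**Figure D2:**
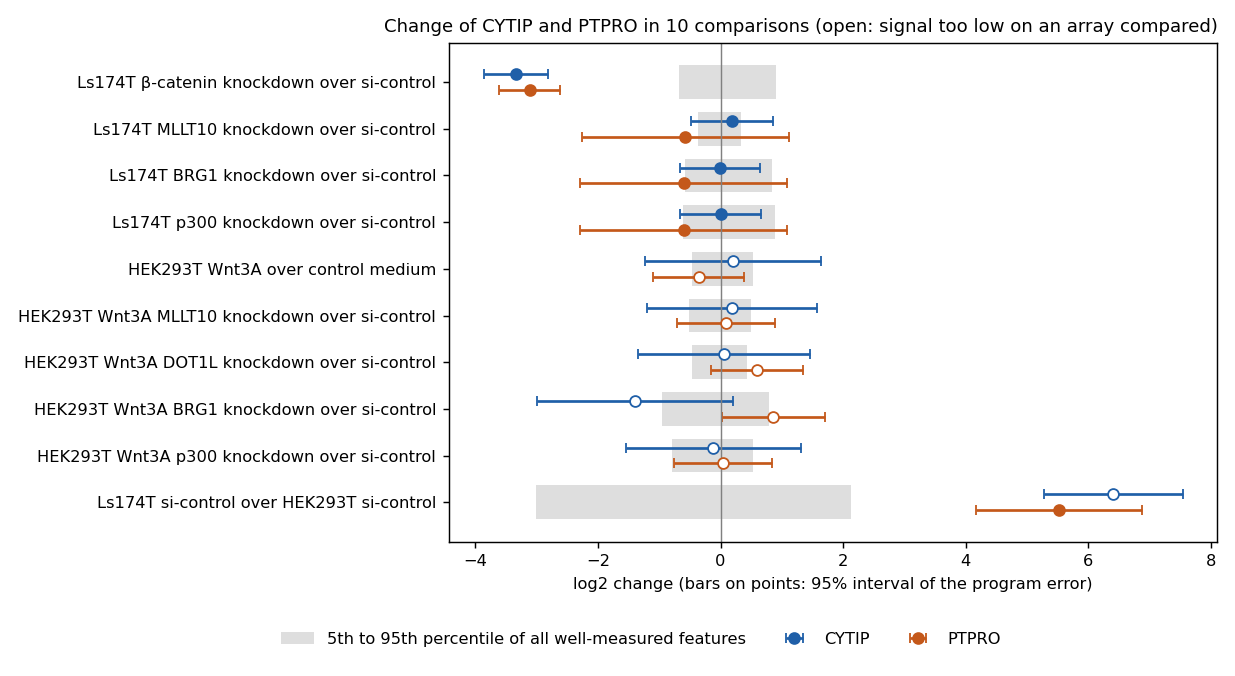
Log2 change of CYTIP (blue) and PTPRO (orange) in 10 comparisons, with 95% intervals from the program error as bars and the 5th to 95th percentile of all well-measured features in grey; open points had a sample channel not well above background or failed the signal criterion on an array compared. Outside the β-catenin knockdown and the comparison of the cell lines, the filled points lie within 2-fold of 0.

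In HEK293T cells CYTIP was at the limit of detection and no Wnt3A response could be measured. The processed signal of the sample channel was 27.4 in control medium, 26.5 with Wnt3A, 34.8 in si-MLLT10, 32.0 in si-DOT1L, 10.7 in si-BRG1 and 26.7 in si-P300 cells, at 1.13 to 1.72 times local background. It was well above background by the program's flag on 2 of the 6 arrays, those of si-MLLT10 and si-DOT1L. The reference channel on the same spots was bright, from 795 to 944, so the probe itself worked on these arrays. The log2 ratios to reference were -5.11 in control medium, -4.91 with Wnt3A, -4.72 in si-MLLT10, -4.84 in si-DOT1L, -6.30 in si-BRG1 and -5.03 in si-P300 cells. The si-BRG1 value stood lowest, and on that spot the local background of the sample channel was marked as an outlier. No change is read between arrays on which CYTIP was not well above background, although the log2 differences of such pairs are plotted as open points and given among the alternatives. The 2 arrays that detected it differed by -0.13 ± 0.70 (si-DOT1L over si-MLLT10, same slide).

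PTPRO was detected at a low level in HEK293T cells. Its sample-channel signal was 81.9 in control medium, 61.7 with Wnt3A, 56.8 in si-MLLT10, 83.3 in si-DOT1L, 88.5 in si-BRG1 and 47.3 in si-P300 cells. All 6 were well above background by the program's flag, but the signal criterion used for counting features, more than 2 times local background in either channel, was met on 1 array of 6, that of control medium. PTPRO was therefore not among the features counted in the HEK293T comparisons. The log2 ratio to reference was 0.75 in control medium and 0.40 with Wnt3A, a change of -0.36 ± 0.38. Against the Wnt3A si-control, PTPRO read 0.093 ± 0.41 after MLLT10, 0.60 ± 0.38 after DOT1L, 0.86 ± 0.43 after BRG1 and 0.039 ± 0.41 after p300 depletion. The intervals of the first, second and last included 0, and that of BRG1 ran from 0.026 to 1.70. The DOT1L and BRG1 values exceeded 1.5-fold, the threshold used in this line, by the program's ratio. With normexp and loess they became 0.15 and -0.021, and the sample channel alone gave 0.31 and 0.28, all within 1.5-fold.

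The Wnt3A si-control array was alone on its slide, so slide and condition cannot be told apart in any HEK293T comparison with it. On the slide that carried control medium, si-MLLT10 and si-DOT1L, PTPRO read -0.26 ± 0.40 and 0.24 ± 0.38 against control medium. On the slide with si-BRG1 and si-P300, PTPRO was 0.82 ± 0.45 higher in si-BRG1 than in si-P300 cells. The share of well-measured features past 1.5-fold in either direction was 6.72% for Wnt3A, 7.43% for MLLT10, 5.77% for DOT1L, 22.2% for BRG1 and 12.3% for p300.

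**Figure D3:**
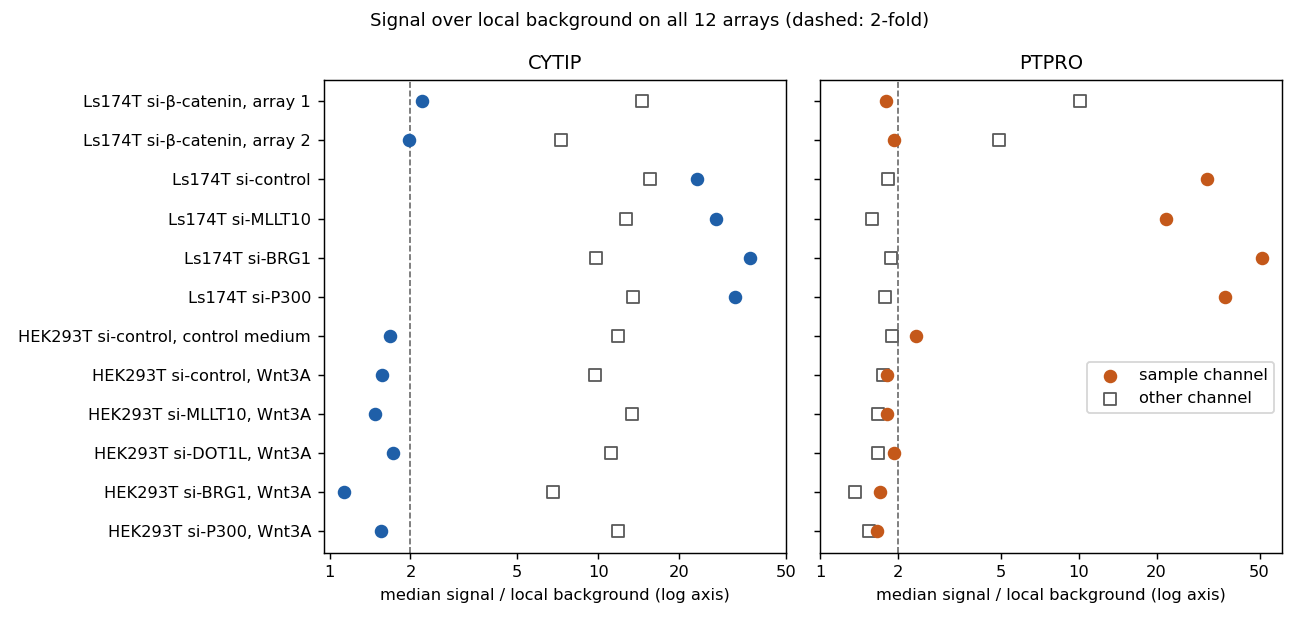
Median signal over local background on a log axis for CYTIP and PTPRO on all 12 arrays, with the sample channel as filled circles, the other channel (si-control on the β-catenin arrays, reference RNA on the rest) as open squares and the 2-fold criterion as a dashed line. CYTIP is dim in HEK293T samples and PTPRO is dim in the reference RNA throughout, the 2 weak sides of the ratios.

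The level of both genes separated the lines on every reference array. The 2 si-b-catenin arrays carried no reference RNA and were left out. There the processed PTPRO signals of depleted cells were 87.8 and 74.5, against 47.3 to 88.5 in HEK293T. Those of CYTIP were 153 and 107, against 10.7 to 34.8. These signals were not scaled between arrays, and the β-catenin pair read dimmer. Its si-control channels read 874 and 562 for PTPRO, against 3083 on the Ls174T si-control reference array. For CYTIP they read 1372 and 1226, against 2212. The signals of depleted cells therefore do not place their level relative to HEK293T. CYTIP log2 ratios to reference lay between 1.29 and 1.48 on the 4 Ls174T arrays and between -6.30 and -4.72 on the 6 HEK293T arrays, and the ranges stood 6.01 apart. PTPRO ratios lay between 5.67 and 6.28 in Ls174T and between 0.40 and 1.26 in HEK293T, and the ranges stood 4.41 apart. Within Ls174T the differences between neighbouring arrays were smaller than their program errors for both genes. These arrays are different siRNA conditions and not replicates. As in any bulk sample, fewer expressing cells and less RNA per cell cannot be told apart.

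Between the si-control samples, Ls174T over HEK293T in control medium, the log2 difference was 5.52 ± 0.69 for PTPRO, and against the HEK293T si-control with Wnt3A it was 5.88 ± 0.69. The first of these was higher than the difference of 99.3% of the features. For CYTIP neither HEK293T si-control signal was well above background, so the computed differences of 6.41 and 6.21 do not fix its size and no rank is read from them. Both members were past 2-fold higher in Ls174T (2 of 2), as were 14.3% of the well-measured features, and 19.1% were past 2-fold lower. Selection as the largest falls, with the depleted channel still well above background, itself called for a bright Ls174T si-control signal. The high place of both members in Ls174T is therefore partly set by that choice. The program's processed signals were also scaled between arrays by their average intensities (Aquantile). Log2 signals in the sample channel were then 11.4 in Ls174T and 4.51 in HEK293T for CYTIP, the latter not well above background. For PTPRO they were 11.9 and 6.07. All these sample channels carried Cy3. Other handling of background made the CYTIP difference smaller, at 5.499 with local background subtracted, 4.30 with normexp after replacing marked background outliers and 1.49 with normexp as such. For PTPRO normexp gave 4.76, and 4.61 with outliers replaced. The Ls174T si-control array shared its slide with the HEK293T arrays of si-BRG1 and si-P300. On that slide PTPRO was 5.02 ± 0.72 and 5.84 ± 0.70 higher in Ls174T si-control cells, and CYTIP was not well above background on either HEK293T array.

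**Figure D4:**
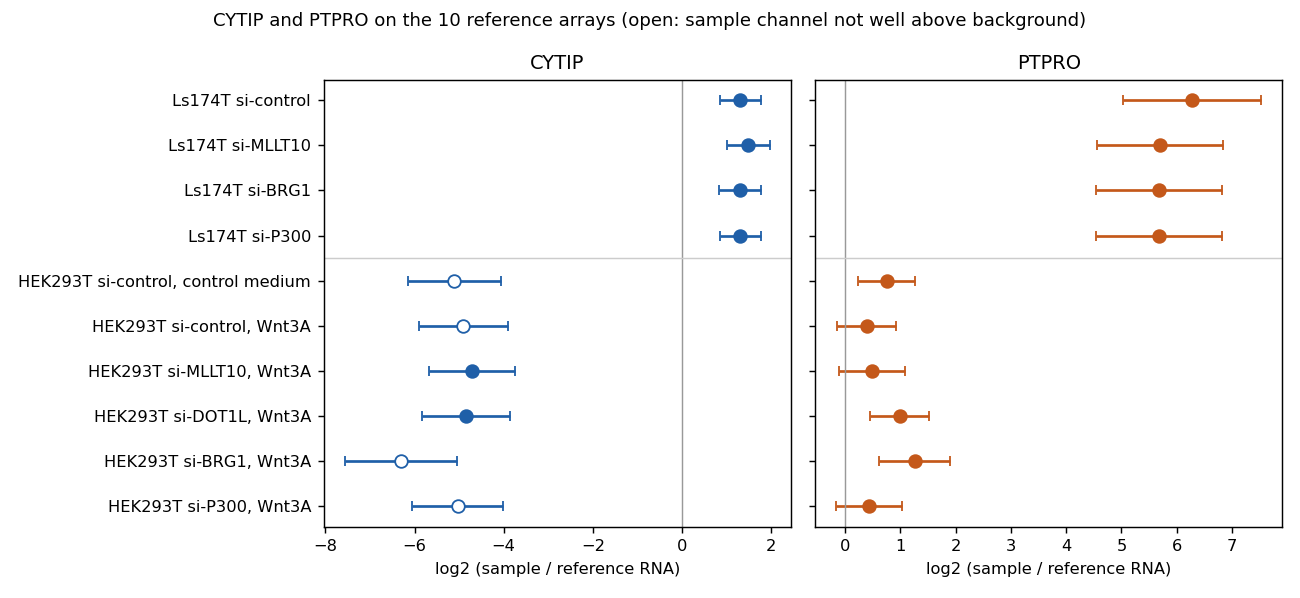
Log2 ratio of the sample to reference RNA for CYTIP and PTPRO on the 10 reference arrays, with 95% intervals from the program error as bars; open points mark a sample channel not well above background. In both panels the 4 Ls174T arrays lie apart from the 6 HEK293T arrays, at 1.29 to 1.48 against -6.30 to -4.72 for CYTIP and 5.67 to 6.28 against 0.40 to 1.26 for PTPRO.

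None of the measured genes that work with CYTIP fell past 2-fold when β-catenin was depleted. Of a list of 15 cytohesins, ARF GTPases, related adaptors and integrin subunits, 8 genes were well-measured with 13 probes. No probe passed 2-fold in either direction, where 1.36% of all features were past it lower and 4.24% higher. The median change was 0.26, against -0.02 over all features. CYTH1, the cytohesin that CYTIP binds, read 0.81 and 1.04 on the 2 arrays, with a mean of 0.92 ± 0.16. CYTH2 read 0.66 ± 0.18 and CYTH3 0.51 ± 0.17. ARF1, a GTPase that cytohesins activate, read from 0.26 to 0.83 on 3 probes, and ARF6 0.21 and 0.14 on 2. The integrin chains ITGB2 and ITGAL, which form LFA-1, were not well-measured in this comparison. Between the lines the same list had 3 probes past 2-fold higher and 2 lower in Ls174T, of 19 measured, where the shares over all features were 14.3% and 19.1%, with a median of -0.31. The higher probes were those of INAVA (3.25), ITGB2 (1.46) and ARF6 (1.43), and the lower those of FRMD4A (-4.15) and SNX27 (-2.45). ITGB2 was not well above background in HEK293T si-control cells, nor the FRMD4A probe in Ls174T. CYTH1 was at -0.92, within 2-fold.

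None of the measured relatives of PTPRO fell past 2-fold either, where 1.36% of all features did. With so few probes measured, the absence of a fall is near that share and says little about the relatives. Of the other R3 receptor phosphatases, PTPRB read 0.37 ± 0.17 and PTPRJ 0.15 ± 0.15 after β-catenin depletion. PTPRH, an R3 phosphatase also called SAP-1 that is found in gut epithelium, read higher on both arrays of the pair, with a mean of 4.88 ± 0.38. PTPRH moved past 2-fold in the direction opposite to PTPRO of the same subfamily, whose fall here is the value that selected it. Of all features 4.24% were past 2-fold higher. In the other Ls174T depletions PTPRH was at 0.61, 0.68 and 0.73 for MLLT10, BRG1 and p300, within 2-fold. Of 15 further receptor phosphatase genes 6 were measured with 9 probes. Only PTPRR passed 2-fold among them, at 1.32 ± 0.17, and the median was 0.34. In the comparison of the lines, 5 of 16 probes of that list were past 2-fold higher in Ls174T and 4 lower, beside the same 14.3% and 19.1% of all features. PTPRE, at 5.78 to 6.79 on 3 probes, and PTPRR, at 6.30, had differences as large as that of PTPRO, although PTPRR and 1 PTPRE probe were not well above background in HEK293T. PTPRB was at 3.56 and PTPRH at -0.55.

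**Figure D5:**
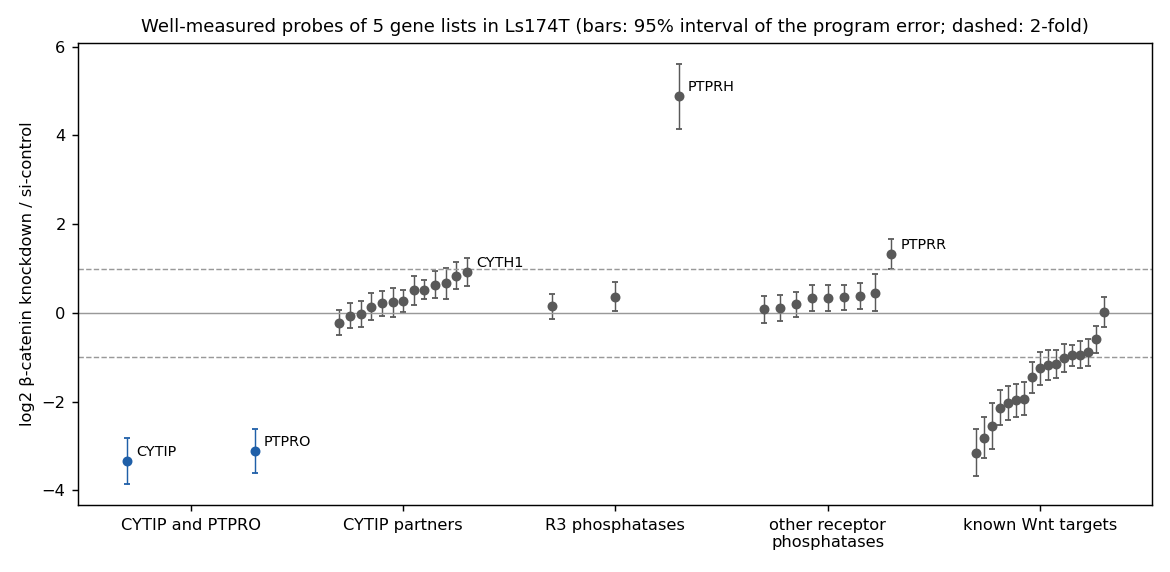
Log2 change after β-catenin knockdown in Ls174T for each well-measured probe of CYTIP and PTPRO, of CYTIP partners, of R3 and other receptor phosphatases and of known Wnt targets, with 95% intervals from the program error as bars and 2-fold as dashed lines. No partner or phosphatase probe lies below -1, PTPRH stands at 4.88, and 12 of 17 Wnt target probes lie below -1. Of all features 1.36% do.

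A list of 21 genes known as Wnt targets was read beside the 2 members. After β-catenin depletion 12 of their 17 measured probes fell past 2-fold, against 1.36% of all features. None rose past it, against 4.24%, and the median was -1.25. AXIN2, a feedback inhibitor of the pathway, changed by -1.97, EPHB3, a receptor that positions cells along the crypt, by -2.14, and MYC by -1.15. The members were chosen as the largest decreases of this comparison, so their place beside the list was set by that choice. In HEK293T cells 7 of 24 measured probes of the list were past 1.5-fold higher with Wnt3A, against 4.04% of all features, AXIN2 among them at 1.08, and none lower. The members were too dim in this line to be set beside them. Between the lines 12 of 24 probes were past 2-fold higher in Ls174T, ASCL2 at 8.95 among them, and 5 were past 2-fold lower, LEF1 at -3.37 and DKK1 at -2.49 among them, against 14.3% and 19.1% of all features.

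Markers of the cell types in which CYTIP and PTPRO are best known were mixed. Of 10 leukocyte marker genes, PTPRC, LAPTM5 and IKZF1 had no probe well above background in Ls174T si-control cells, and the median difference between the lines over 10 measured probes was 0.06, with a range of -1.10 to 1.46, 3 probes past 2-fold higher in Ls174T and 1 lower, against 14.3% and 19.1% of all features. Only CD68 and CORO1A were measured after β-catenin depletion, at 2.69 and -0.32. The 3 measured probes of podocyte marker genes ranged from -0.20 to 0.21 after β-catenin depletion. Between the lines WT1, at 2.49, and PODXL, at 1.05, were past 2-fold higher in Ls174T. Markers of the lines themselves followed the labels. All 8 intestinal epithelial marker genes were above background in Ls174T, and although 7 of them were also flagged so in HEK293T, 3 of the 4 measured probes were past 2-fold higher in Ls174T, with a median of 5.88. All 5 measured probes of embryonic kidney and neural-like markers were past 2-fold higher in HEK293T, with a median of -7.55 for Ls174T over HEK293T. After β-catenin depletion none of 9 intestinal probes fell past 2-fold and 4 rose past it, against 1.36% and 4.24% of all features. KRT20 read 4.78 and LGALS4 3.29. CYTIP and PTPRO went down in this comparison, as their selection required.

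Over the 4 Ls174T depletions, the named genes whose changes were most like those of CYTIP among 12400 probes were CTNNB1, at a root mean square difference of 0.38, ASCL2 at 0.44, CEMIP at 0.46, TNFSF12 at 0.56 and ENC1 at 0.56. Those most like PTPRO were REG1A at 0.45, SLC12A2 at 0.58, CYTIP at 0.58, EPHB3 at 0.58 and SMOC2 at 0.62. CYTIP is thus among the 5 nearest to PTPRO, while PTPRO is not among the 5 nearest to CYTIP. The measure contains the change that chose the members, and 3 of its 4 changes share the si-control array, so the lists are a description.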

How the data were processed

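Spot intensities and log10 ratios on each array were deposited by the authors as Agilent Feature Extraction output, version 10.5.1.1 in the file headers and 8.5.1.1 per the labels. Its ratios are background-subtracted and dye-normalized. Samples were Cy3 and the reference RNA Cy5 on the 10 reference arrays. The deposited value table held the same ratios on the log2 scale, with 1 array of the dye-swapped pair turned, and was used as an alternative only.

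Log ratios were turned to sample over other channel and converted to log2. The dye-swapped arrays were averaged and counted as 1 sample. Each other change was the difference between 2 arrays, with program errors combined as the root of summed squares. Features were well-measured where the median signal of either channel was over 2 times local background on all arrays compared, without spots flagged as outliers. Following the study's methods, a change was counted past 2-fold in Ls174T cells and past 1.5-fold in HEK293T cells. The 2-fold threshold between lines was chosen here. Probes were named through RefSeq accessions, of which 94.9% had a symbol in the GRCh38.p14 table.

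Having 1 sample per condition limits the precision, and no test was made. The members and the gene lists were chosen with earlier results of these data known. Genes named are the members, siRNA targets, list genes, the neighbours in the ranking of decreases, and for each member the 5 genes of most similar change. Some podocyte markers are not reported here. The unnamed feature and CEMIP in the ranking were named after their values were seen. Alternatives were normexp with loess in limma 3.58.1 (R 4.3.3), the sample channel alone, median signals, median centring, the value table, single arrays, other control arrays, flags and thresholds. Scripts ran in Python 3.11.15 with pandas 2.3.3 and were tested on simulated data.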

Additional observations from a re-analysis of the deposited data

How the results depend on the processing

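No paired analysis was possible because each condition was 1 sample and the groups share no 2 replicate numbers. Of 134 recomputed values of the members, 109 moved by less than their program error. All those taken from the value table, with median centring or with another control array were among these. With outliers kept the ranks stayed at 1 and 4. On 1 β-catenin array alone, CYTIP was -3.52 to -3.17 and PTPRO -3.32 to -2.92. Under normexp and loess, CYTIP was -2.41 after β-catenin depletion, -2.37 with Wnt3A, 1.49 between lines and 1.83 after BRG1 depletion in HEK293T, where it had been -1.40. CYTIP was not well above background on the arrays behind its HEK293T values, which are no measured changes. PTPRO was then -2.09 after β-catenin, -2.61 after BRG1 and -1.64 after p300 depletion in Ls174T, 0.039 with Wnt3A, 0.15 after DOT1L and -0.021 after BRG1 depletion in HEK293T, and 4.76 between lines. With marked background outliers replaced, an alternative chosen after seeing the data, CYTIP was -2.44 after β-catenin depletion, -0.19 after BRG1 depletion in HEK293T and 4.30 between lines, and PTPRO was -2.12, 0.18 (0.15 after DOT1L depletion) and 4.61. With median signals minus local background, CYTIP was -2.85 after β-catenin depletion and 5.499 between lines, and PTPRO -2.58 after β-catenin, 0.52 after MLLT10 and 0.39 after BRG1 depletion in HEK293T. The sample channel alone gave PTPRO 0.28 after BRG1 and -0.38 after p300 depletion there. The rank of PTPRO was 2 in place of 4 with both channels well above background. The cause of the shifts was not tested.

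At 1.5-fold in place of 2-fold, features higher and lower in Ls174T went from 751 and 241 to 1867 and 1285 for β-catenin, from 206 and 269 to 587 and 651 for MLLT10, from 1070 and 389 to 2189 and 1366 for BRG1, from 1164 and 493 to 2624 and 1569 for p300, and between lines from 3926 and 5259 to 6620 and 8028. At 2-fold in place of 1.5-fold in HEK293T they went from 1172 and 777 to 402 and 135 for Wnt3A, from 956 and 1145 to 213 and 493 for MLLT10, from 602 and 1058 to 121 and 466 for DOT1L, from 2848 and 3376 to 667 and 1238 for BRG1, and from 1110 and 2293 to 229 and 926 for p300.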

Other observations

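The related genes were also read in the other knockdowns. In Ls174T, the list of CYTIP partners had no probe past 2-fold after MLLT10 depletion. After BRG1 (1.75) and p300 (1.61) depletion 1 of 19, ITGAL, was past it upward, and ITGAL was not above background in si-control cells. None of 4 R3 phosphatase probes passed 2-fold in these 3 depletions. Over all features 1.74% passed it in either direction for MLLT10, 5.26% for BRG1 and 5.9% for p300. PTPRR, which rose with β-catenin depletion, was at -0.09 after MLLT10, 0.02 after BRG1 and -1.36 after p300 depletion.

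In HEK293T cells, 3 of 17 probes of the further receptor phosphatases were past 1.5-fold higher with Wnt3A, against 4.04% of all features, and 2 of these were probes of PTPRE, at 0.77 and 1.79, while the third PTPRE probe was at 0.18. The probe at 1.79 was not well above background in control medium. The remaining call was PTPRC at 1.25, with 1 of its 10 spots well above background there. These 2 calls therefore rest on a control level that was hardly detected.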
